A study of Mus musculus with 15 samples.

Results

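The genes described here are Lrrk2, Pink1, Park7, Vps35, Uchl1, Atp13a2 and Fbxo7, the mouse counterparts of human genes in which inherited variants have been linked to Parkinson disease, leaving out the synuclein genes. Their rows were taken by symbol, and no measured value enters that rule, although earlier results of these data were known when the list was drawn up. All 7 were found among the 45777 gene symbols in each count file, and all 7 passed the filter on low counts that left 21821 genes for testing.

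Loss of midbrain dopamine neurons and slowed movement define Parkinson disease, and the inherited forms point to a small number of cell functions. LRRK2 is a large kinase that phosphorylates Rab GTPases on membranes, PINK1 is a kinase that marks damaged mitochondria for removal, and DJ-1, the product of Park7, protects cells from oxidative stress. VPS35 is the core of the retromer, which returns cargo from endosomes, ATP13A2 is a lysosomal P5 ATPase that exports polyamines, UCHL1 is an abundant ubiquitin hydrolase of neurons, and FBXO7 is an F-box protein of an SCF ubiquitin ligase that also binds the proteasome regulator PI31.

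RNA was sequenced from mouse brain in 15 libraries, 3 in each of 5 groups, sampled at the time labelled 6 weeks. Control mice received only standard diet. The MPTP group was injected intraperitoneally with 20 mg/kg/day of MPTP, a toxin that damages dopamine neurons, for 1 week. The other 3 groups received the same MPTP course and then 4 weeks of treatment: levodopa, the precursor of dopamine, at 2 mg/kg/day, or an inhibitor of Bruton's tyrosine kinase (BTK) at a low dose of 1 µg/kg/day or a high dose of 2 µg/kg/day. The labels also give the inhibitor doses as 25 and 50 pM, and they name both an oral and an intraperitoneal route for levodopa. The protocol counts 8 mice in each group, but the labels do not say which brain region was taken or whether each library came from a separate mouse, so the p-values measure the spread between these libraries, which may be technical. MPTP was given to every group but the control, so each drug effect is measured on top of MPTP, and no group received a drug alone.

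Total depth was 58149722 to 61998459 reads in the 6 inhibitor libraries and 63314658 to 68257095 reads in the other 9. Mitochondrial ribosomal RNA made up 0.937% to 1.48% of the reads with inhibitor and 0.244% to 0.88% without it, and the deposited files of the 6 inhibitor libraries have 24 empty trailing columns where those of the other 9 have 51. These differences follow the inhibitor and cannot be told apart from it. Sums of 10 marker genes for each region or cell type, in counts-per-million units (CPM), differed between libraries of the same label. The pan-neuronal sum was 6720 to 8980 in all 15 libraries, but its genes differed. Rbfox3 was 429 CPM in control 2, 363 CPM in levodopa 2 and 84.2 to 187 CPM in the others. Syt1 was lowest in the same libraries, at 563 and 418 CPM. The cerebellar sum was 7210 in control 2 and 5870 in levodopa 2, against 141 to 483 in the other 13. Gabra6, a receptor subunit of cerebellar granule cells, was 649 CPM in control 2 and 556 CPM in levodopa 2 and had no read in control 1, MPTP 2, MPTP 3 or BTK high 2. The striatal sum was 2860 in control 1, 219 to 465 in the other 8 libraries without inhibitor, 581 to 1520 at the high dose and 1400 to 1790 at the low dose. The cortical and hippocampal sum was 322 to 1020 without inhibitor and 1220 to 3630 with it. The dopamine neuron sum was 488 to 726 after MPTP and 163 to 494 in control, so MPTP libraries did not hold less of these markers than control libraries. The part of these regional differences in any result was not tested beyond the fits without control 2 and levodopa 2 and the fits with regional marker scores as covariates. In whole tissue, fewer cells of a type and less RNA per cell cannot be told apart.

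None of the 7 genes passed the edgeR quasi-likelihood test at an adjusted p of 0.05 in any of the 7 comparisons. Pink1, Park7, Vps35, Atp13a2 and Fbxo7 stayed within 1.42- to 1.74-fold from the lowest to the highest of all 15 libraries. Lrrk2 spanned 3.83-fold and Uchl1 6.49-fold. Lrrk2 was lowest in MPTP brain and higher in low-dose brain by 1.15 on the log2 scale (SE 0.37), a difference that passed the test with DESeq2 (adjusted p = 0.0243) but not with edgeR (adjusted p = 0.0706). DESeq2 called 15.6% of all genes in that comparison. The low Uchl1 values lay in the cerebellar-rich libraries control 2 and levodopa 2.

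**Figure D1:**
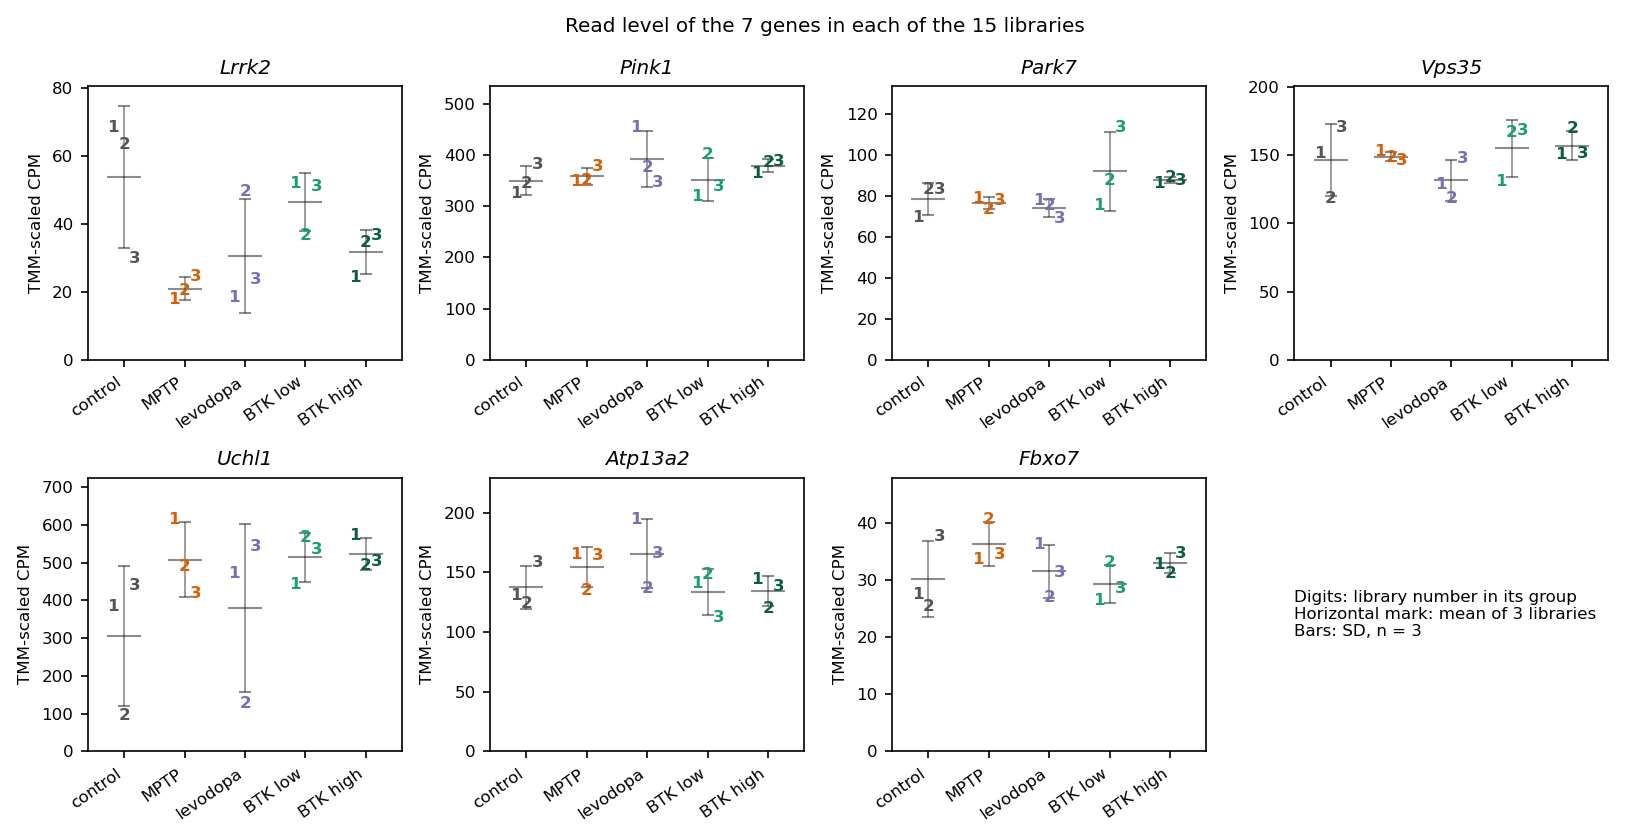
Level of each of the 7 genes in counts-per-million units (CPM) scaled by TMM (trimmed mean of M-values), with 1 point per library, 3 libraries per group and the mean and SD of each group. Lrrk2 and Uchl1 spread 3.83-fold and 6.49-fold over the 15 libraries, and the other 5 genes spread 1.42- to 1.74-fold.

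The start regions of the members also differed in base composition, and 4 of them are printed here. They are those of Lrrk2 and Uchl1, the genes of widest spread, and those of Pink1 and Park7. Each is the 150 bases before a RefSeq transcription start on GRCm38.p6, 5′ to 3′ on the gene's own strand, with each CG dinucleotide in capitals. Each stretch lies at least partly within the GENCODE bounds of its gene. That of Lrrk2 also lies within its RefSeq bounds, which begin at 91672791.
Lrrk2, chr15:91673074-91673223, plus strand: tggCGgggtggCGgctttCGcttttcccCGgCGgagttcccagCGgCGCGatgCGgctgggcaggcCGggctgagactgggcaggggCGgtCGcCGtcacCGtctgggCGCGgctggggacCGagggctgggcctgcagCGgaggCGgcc
Uchl1, chr5:66675971-66676120, plus strand: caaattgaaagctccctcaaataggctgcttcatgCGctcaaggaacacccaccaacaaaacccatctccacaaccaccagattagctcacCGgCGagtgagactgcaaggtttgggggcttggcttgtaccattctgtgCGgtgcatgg
Pink1, chr4:138326297-138326446, minus strand: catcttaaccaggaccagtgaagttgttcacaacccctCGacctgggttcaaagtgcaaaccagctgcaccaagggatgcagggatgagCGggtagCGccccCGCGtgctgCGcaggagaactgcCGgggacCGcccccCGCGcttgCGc
Park7, chr4:150909922-150910071, minus strand: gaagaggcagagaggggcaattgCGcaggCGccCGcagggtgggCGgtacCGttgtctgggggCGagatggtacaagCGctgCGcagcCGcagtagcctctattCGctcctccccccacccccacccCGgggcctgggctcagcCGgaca
The printed stretch held 19 CG dinucleotides for Lrrk2, 12 for Park7, 11 for Pink1 and 4 for Uchl1. In the full RefSeq windows, which run from 250 bases before to 50 after the start, Lrrk2 had 28, more than 85.8% of the 32851 windows in the table, and Uchl1 had 9, more than 54.2%. Atp13a2 had 28, Park7 22, Pink1 18, and the 2 windows of Fbxo7 31 and 40. The median window held 7. Windows matched 6 of the 7 members. Vps35 was not matched.

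Both strands of these windows were searched for 2 motifs. The NBRE, the letters AAAGGTCA to which the Nurr1 family (NR4A nuclear receptors) binds, was in 0 of the 7 member windows and in 1.51% of all windows. The E-box CACGTG, which TFEB and other basic helix-loop-helix factors bind, was in 1 of 7 and in 7.15% of all windows. That match lies in the second Fbxo7 window and is shown with the E-box in capitals.
Fbxo7, chr10:86022174-86022203, plus strand: gggatggcgcgcttcgagcggtCACGTGag
A match or its absence describes only these letters in these windows.

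Lrrk2 (GRCm38, chromosome 15, 91673175 to 91816120, plus strand, 54 exon blocks in GENCODE M21) had the lowest level of the 7 per length. Its reads were 68.3, 63.5 and 29.8 CPM in control libraries 1, 2 and 3, and 17.9, 20.4 and 24.6 CPM in the MPTP libraries. All 3 control libraries were above all 3 MPTP libraries, with control 3 close to them. The level was 18.5, 49.7 and 23.8 CPM after levodopa, where the cerebellar-rich levodopa 2 stood apart from the other 2. It was 51.9, 36.7 and 51.1 CPM at the low inhibitor dose and 24.3, 34.5 and 36.6 CPM at the high dose. The low-dose libraries lay above all MPTP libraries and, with BTK low 2 barely over BTK high 3, above all high-dose libraries, while BTK high 1 overlapped the MPTP range. The order of the group means was control, low dose, high dose, levodopa, MPTP, and among the 4 neighbouring pairs in that order only low dose and high dose did not overlap.

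Against control, the MPTP mean of Lrrk2 was 20.9 ± 3.38 CPM against 53.8 ± 21 CPM (SD, n = 3 each), a log2 difference of -1.36 (SE 0.37). The unadjusted p was 0.0029, and the adjusted p was 0.717 with edgeR and 0.0879 with DESeq2. Leaving out a control library moved the log2 difference to between -1.16 (without control 1) and -1.67 (without control 3). Without control 2 and levodopa 2 together it was -1.24, with an edgeR adjusted p of 0.316. The control libraries with the highest Lrrk2, control 1 and control 2, were the ones with the highest striatal and the highest cerebellar marker sum. A fit with regional marker scores as covariates, which held cerebellar but no striatal markers, called 0% of the 21821 genes in this comparison. The part of those regions in the difference was not tested beyond these fits.

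After MPTP, the low inhibitor dose gave a Lrrk2 mean of 46.6 ± 8.57 CPM (SD, n = 3), 2.22-fold the MPTP mean. The log2 difference of 1.15 (95% interval 0.36 to 1.95) had an edgeR adjusted p of 0.0706, which ranged from 0.00283 to 0.864 over the alternative fits. It was 0.0119 without control 2 and levodopa 2 and 0.00283 in a fit of the 2 groups alone. Those fits called 23.7% and 20.8% of the genes they tested. With regional marker scores as covariates the adjusted p was 0.864, and the difference was 0.99 with an SE of 0.88. Those scores held no striatal or choroid plexus markers. The striatal marker sum was 1400 to 1790 in the low-dose libraries and 219 to 275 in the MPTP libraries, and the cortical and hippocampal sum was 2770 to 3630 and 559 to 635. The choroid plexus sum was 928 to 1450 and 51.4 to 64, the thalamus and midbrain sum 216 to 415 and 934 to 1320, and the dopamine neuron sum 71.7 to 290 and 488 to 726. These sums and the inhibitor cannot be told apart in this comparison.

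The remaining Lrrk2 differences did not pass. The high dose gave 31.8 ± 6.58 CPM (SD, n = 3), 0.60 above MPTP on the log2 scale (SE 0.37, edgeR adjusted p = 0.416). Directly against the low dose the log2 difference was -0.55 (SE 0.36, 95% interval -1.34 to 0.24, edgeR adjusted p = 1). Levodopa differed from MPTP by 0.55 (SE 0.36, edgeR adjusted p = 0.954), which became 0.01 without control 2 and levodopa 2. Low and high dose differed from control by -0.21 (SE 0.36) and -0.76 (SE 0.37), with edgeR adjusted p of 0.761 and 0.265.

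**Figure D2:**
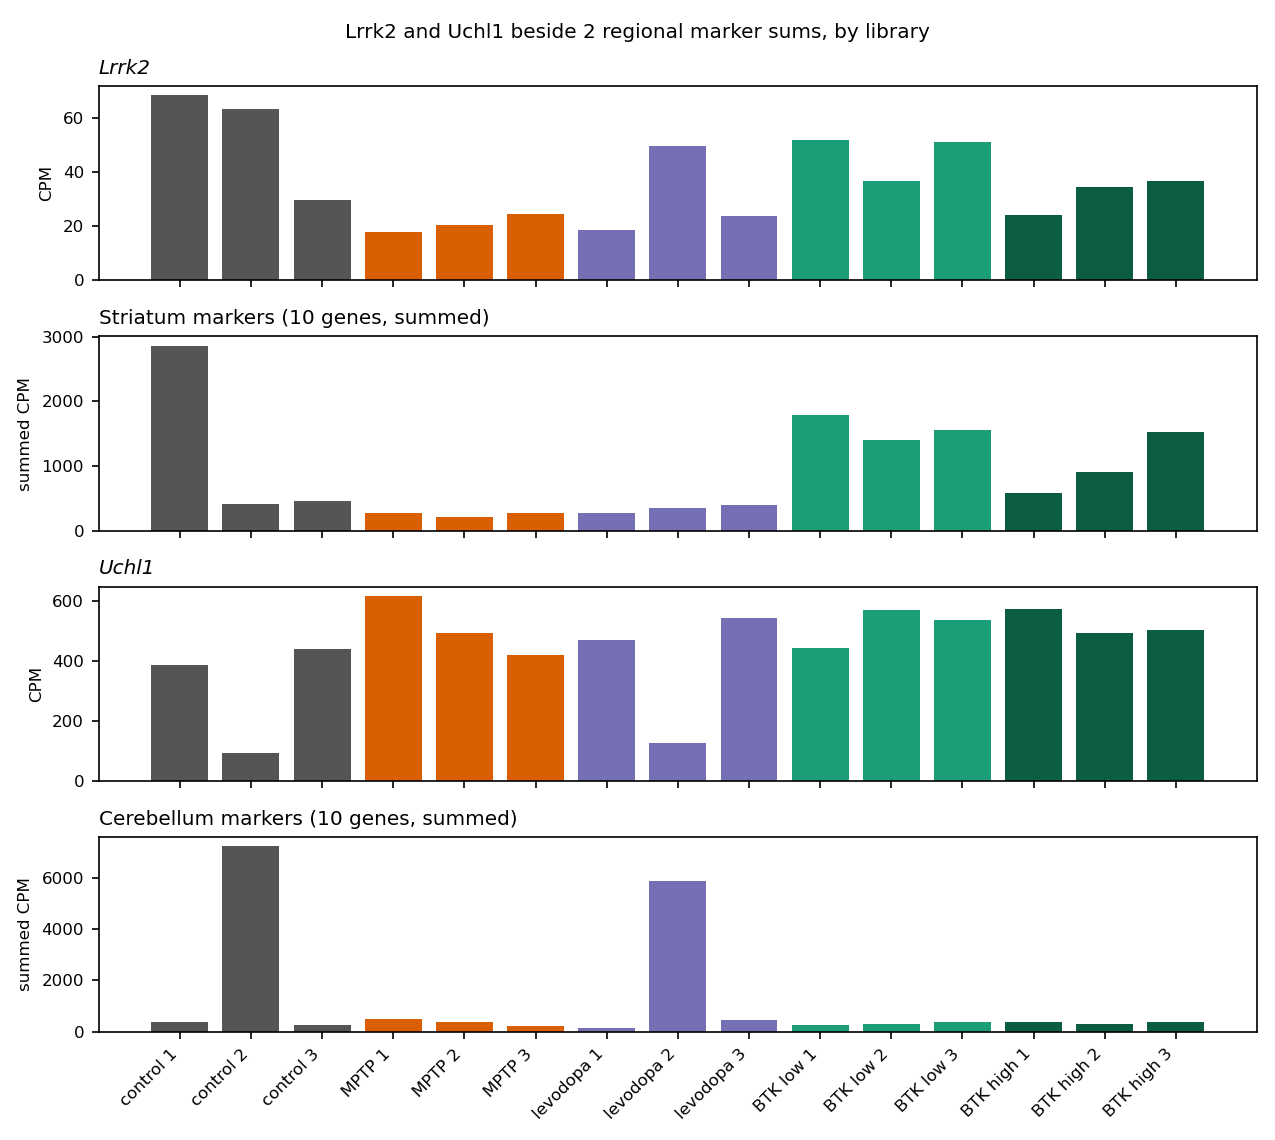
Lrrk2 and Uchl1 in counts-per-million units (CPM) and the summed CPM of 10 striatal and 10 cerebellar marker genes, with 1 bar per library. Lrrk2 reached 68.3 CPM in control 1, which has the highest striatal sum (2860), and Uchl1 was 94.8 and 127 CPM in control 2 and levodopa 2, which have the cerebellar sums 7210 and 5870.

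Pink1 (chromosome 4, 138313409 to 138326307, minus strand, 8 exon blocks) varied least. It was 325, 344 and 381 CPM in the control libraries, 348, 350 and 377 CPM after MPTP, and 453, 377 and 346 CPM after levodopa. It was 318, 400 and 338 CPM at the low dose and 364, 386 and 388 CPM at the high dose. Every pair of groups next to each other in the order of means overlapped, and the highest group mean was 1.12-fold the lowest. The log2 difference between MPTP and control was 0.03 (SE 0.12, 95% interval -0.23 to 0.30), and the levodopa difference from MPTP was 0.13 (SE 0.12, edgeR adjusted p = 0.954). Its root mean square deviation from its own mean was 0.126 on the log2 scale, and 8.68% of the genes within 2-fold of its level varied less.

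Park7 (chromosome 4, 150897133 to 150914437, minus strand, 11 exon blocks) encodes DJ-1. Its level was 69.6, 82.9 and 83.1 CPM in control libraries, 78.8, 73.2 and 77.8 CPM after MPTP and 77.6, 75.5 and 69.1 CPM after levodopa. It was 75.1, 87.4 and 113 CPM at the low dose and 86.1, 89.0 and 87.3 CPM at the high dose. The 3 high-dose libraries were close together and above every control, MPTP and levodopa library, while the low-dose group spanned from within the MPTP range to the highest value of all, in BTK low 3. The high dose differed from MPTP by 0.19 (SE 0.13, edgeR adjusted p = 0.482) and from control by 0.16 (SE 0.13, edgeR adjusted p = 0.523). The low dose differed from MPTP by 0.26 (SE 0.13, 95% interval -0.02 to 0.55, edgeR adjusted p = 0.231).

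Vps35 (chromosome 8, 85260392 to 85299802, minus strand, 18 exon blocks) was 151, 118 and 170 CPM in control libraries and 152, 148 and 146 CPM after MPTP. It was 129, 118 and 148 CPM after levodopa, 131, 166 and 168 CPM at the low dose, and 150, 169 and 151 CPM at the high dose. The lowest values, 118 CPM each, were in control 2 and levodopa 2. All neighbouring groups overlapped, and the log2 differences from MPTP were -0.18 for levodopa (SE 0.14), 0.06 for the low dose (SE 0.14) and 0.08 for the high dose (SE 0.14). The MPTP difference from control was 0.02 (SE 0.14) and changed sign to -0.11 without control 2 and levodopa 2. The other retromer core subunits were Vps26a at 48.8 to 68.9 CPM, Vps29 at 74.1 to 114 CPM and Vps26b at 107 to 179 CPM. Vps26b was highest in control 2 and levodopa 2, at 179 and 171 CPM, the libraries in which Vps35 was lowest. The 171 exon bases that Vps35 shares with Orc6 on the opposite strand could hold reads of either gene, since use of strand in counting is not given in the sources used here. Orc6 had 817 to 1481 reads per library.

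Atp13a2 (chromosome 4, 140986873 to 141007330, plus strand, 25 exon blocks) was 131, 124 and 158 CPM in control libraries, 165, 135 and 164 CPM after MPTP and 195, 137 and 166 CPM after levodopa. It was 141, 148 and 112 CPM at the low dose and 144, 120 and 138 CPM at the high dose. The inhibitor groups had the lowest means, 134 CPM each, but all neighbouring groups overlapped. Both doses differed from MPTP by -0.21 on the log2 scale (SE 0.16 each), with edgeR adjusted p of 0.44 and 0.538. With regional marker scores as covariates these differences were 0.11 (SE 0.36) and 0.07 (SE 0.28), with wider errors. Atp13a3, a relative of the same ATPase family, was 59.1 CPM at the low dose and 71.5 CPM after MPTP (log2 difference -0.28, SE 0.15, edgeR adjusted p = 0.269).

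Uchl1 (chromosome 5, 66676091 to 66687234, plus strand, 9 exon blocks) had the highest level of the 7 per length and the widest spread. It was 385, 94.8 and 439 CPM in control libraries and 470, 127 and 543 CPM after levodopa. The low values were in the cerebellar-rich libraries control 2 and levodopa 2, and the other 13 libraries were at or above 385 CPM. It was 615, 491 and 418 CPM after MPTP, 442, 567 and 534 CPM at the low dose and 571, 493 and 502 CPM at the high dose. The inhibitor libraries lay above all control libraries, BTK low 1 only just over control 3, and the MPTP libraries overlapped the control range only through MPTP 3 and control 3.

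The group means of Uchl1 were 508 ± 99.5 CPM after MPTP and 306 ± 185 CPM in control (SD, n = 3 each), a log2 difference of 0.73 (SE 0.52, edgeR adjusted p = 0.72). Without control 2 and levodopa 2 that difference was 0.30 (SE 0.167, edgeR adjusted p = 0.809). Levodopa differed from MPTP by -0.42 (SE 0.51, edgeR adjusted p = 0.954), and by -0.01 without the same 2 libraries. The low and high dose differed from control by 0.75 and 0.77 (SE 0.52 each, edgeR adjusted p of 0.395 and 0.418), and these differences were 0.31 and 0.34 without control 2 and levodopa 2. Against MPTP the doses differed by 0.02 and 0.04 (SE 0.51 each). Uchl1os, an antisense gene that shares 295 exon bases with Uchl1, had 0 to 90 reads per library, against at least 5772 for Uchl1. Uchl3, a hydrolase of the same family, was 13.1 to 28.3 CPM.

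Fbxo7 (chromosome 10, 86021972 to 86051873, plus strand, 11 exon blocks) was 27.5, 25.3 and 37.7 CPM in control libraries, 33.7, 40.7 and 34.5 CPM after MPTP and 36.3, 27.0 and 31.3 CPM after levodopa. It was 26.5, 33.0 and 28.6 CPM at the low dose and 32.8, 31.2 and 34.7 CPM at the high dose. All low-dose libraries were below all MPTP libraries, though BTK low 2 came close to MPTP 1, and every pair of groups next to each other in the order of means overlapped. The low-dose log2 difference from MPTP was -0.31 (SE 0.16, 95% interval -0.65 to 0.04, edgeR adjusted p = 0.252), and the MPTP difference from control was 0.27 (SE 0.16, edgeR adjusted p = 0.717). With regional covariates the low-dose difference was 0.27, in a fit that called 0% of all genes in this comparison. Psmf1, which encodes the partner PI31, was 25.8 to 33.0 CPM in all libraries.

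**Figure D3:**
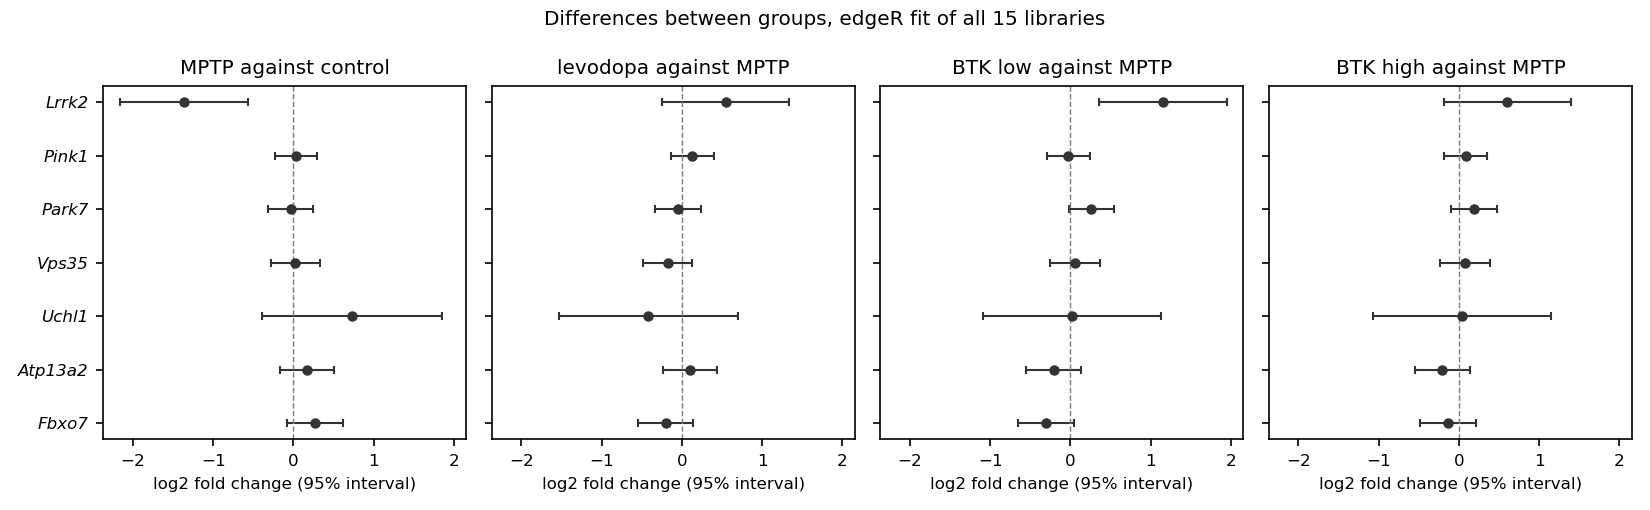
Log2 fold changes of the 7 genes with their 95% intervals (edgeR, all 15 libraries in the fit) for MPTP against control and for each treatment against MPTP. The intervals of Lrrk2 for MPTP against control (-2.16 to -0.56) and for the low dose against MPTP (0.36 to 1.95) leave out 0, and no adjusted p is under 0.05.

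The members' counts were set beside those over all genes. Between MPTP and control 0 of 7 were called, as were 0% of all 21821 genes, and DESeq2 called 51 genes. The unadjusted p was under 0.05 for 1 member (Lrrk2) and 1445 genes. Between levodopa and MPTP 0 of 7 and 0% of genes were called, with 0 members and 645 genes at an unadjusted p under 0.05 and 2 genes called by DESeq2. Between the doses 0 of 7 and 0% were called, with 0 members and 486 genes at an unadjusted p under 0.05 and 1 gene called by DESeq2. DESeq2 called none of the 7 in these 3 comparisons.

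The inhibitor comparisons had calls among all genes but none among the 7. Low dose against MPTP had 0 of 7 against 8.53% of genes, high dose against MPTP 0 of 7 against 1.97%, low dose against control 0 of 7 against 5.4%, and high dose against control 0 of 7 against 0.376%. Lrrk2, low dose against MPTP, was the only member at an unadjusted p under 0.05 in these 4 comparisons and the only member called by DESeq2 in them. Leaving out 1 library moved these shares. The low-dose share against MPTP was 1.88% without MPTP 2, 1.9% without MPTP 3, 2.79% without BTK low 3, 3.95% without MPTP 1 and 4.78% without BTK low 1. The high-dose share against MPTP was 0.0804% to 0.616% without any 1 of its 6 libraries. Against control, the low-dose share was 0.348% without BTK low 3 and 1.11% to 2.71% without control 2, control 3, BTK low 1 or BTK low 2. The high-dose share was 0.0667% to 0.134% without control 2, control 3 or any high-dose library. With 7 genes, 0 calls against a background of up to 8.53% is not a result about the members.

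Libraries of the groups did not overlap for 1 of 7 members between MPTP and control (Lrrk2), against 13% of all genes. The same counts were 0 of 7 against 9.58% for levodopa and MPTP, and 2 of 7 (Lrrk2 and Fbxo7) against 40.7% for low dose and MPTP. They were 1 of 7 (Park7) against 39.8% for high dose and MPTP, and 1 of 7 (Lrrk2) against 10.6% for the doses. Against control, they were 1 of 7 (Uchl1) against 26.2% for the low dose and 2 of 7 (Park7 and Uchl1) against 27.4% for the high dose. The median absolute log2 difference of the members was 0.21 for low dose against MPTP, beside 0.356 over all genes, and 0.17 for MPTP against control, beside 0.239. The genes behind the all-gene medians were not matched to the members for level, so these medians do not rank the members.

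Per length, the members covered a wide range of levels. Divided by union exon length, the median over libraries was 301 CPM per kb for Uchl1 (58.1 to 377) and 136 for Pink1 (119 to 170). It was 31.8 for Park7, 23.5 for Atp13a2 and 16.9 for Vps35, 5.31 for Fbxo7 and 2.91 for Lrrk2 (1.51 to 5.78). Uchl1 and Lrrk2, at the ends of this order, were also the genes of widest spread. The root mean square log2 deviation was 0.762 for Uchl1, more than 93.9% of genes of like level, and 0.621 for Lrrk2, more than 90.9%. For Park7, Vps35, Atp13a2 and Fbxo7 it was 0.168 to 0.201, and 27.6% to 41.2% of genes of like level varied less. Among pairs of members, Pink1 and Fbxo7 had the most alike profiles over the 15 libraries (root mean square difference 0.167 on the log2 scale), and Lrrk2 and Uchl1 the least (1.22).

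The genes with the profile closest to each member, among 11855 candidates and over the 15 libraries, were named by the same measure as a description. For Lrrk2 they were Fam184b (0.18), Prkcb (0.239), a protein kinase C, and Kcnab1 (0.243), a potassium channel subunit. For Uchl1 they were Epha5 (0.163), an ephrin receptor, Cgref1 (0.181) and Tnip2 (0.186). Both of these sets were less close than those of the other members. Pink1 was closest to Pgp (0.057), Cdip1 (0.082) and Wrap53 (0.083). Park7 was closest to Mocs2 (0.054), Ndufb10 (0.055), a complex I subunit, and Eif3g (0.064). Vps35 was closest to Rab9 (0.07), a Rab GTPase of late endosomes, Psmd5 (0.072) and Atp6v1c1 (0.076), a proton pump subunit. Atp13a2 was closest to Adar (0.088), Ube2o (0.094) and Tnk2 (0.097), and Fbxo7 to Sccpdh (0.079), Spg20 (0.085) and Svip (0.095).

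The pathways around the members were read from 8 lists holding 226 symbols, of which 225 were tested. In MPTP against control, levodopa against MPTP and high against low dose, edgeR called 0 of the 225 genes. At an unadjusted p under 0.05 there were 3, 5 and 7 of them, and with DESeq2 the calls were 1, 0 and 0. Low dose against MPTP had 9 that rose and 8 that fell, 7.56% of the 225 beside 8.53% of all genes, and 7 of the 17, among them Rilpl2, Atp13a4, Fkbp8, Optn, Otub2 and Usp8, kept their call without each library in turn. High dose against MPTP had 5 that rose and 3 that fell, 3.56% beside 1.97%. Low dose against control had 5 and 6, 4.89% beside 5.4%, and high dose against control had 1 that rose, 0.44% beside 0.376%. The shares are near the background. With regional marker scores as covariates none of the 225 was called in any comparison. The same fit called at most 2 of all 21821 genes in a comparison, so that count is not a result about these genes. With those covariates the low-dose log2 differences from MPTP were smaller by over 1.5-fold for Rilpl2 (0.56), Optn (-0.20), Otub2 (0.30), Usp8 (-0.20) and Usp9x (-0.36), with edgeR adjusted p of 0.811 to 0.939, and that of Tomm7 was larger (1.05, adjusted p = 0.777). The high-dose differences were 0.33 for Rilpl2 and 0.09 for Otub2 (adjusted p = 0.807 and 0.957).

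Among LRRK2 partners and Rab substrates, 2 rose and 1 fell of 27 at the low dose against MPTP, with a median log2 difference of 0.04 beside -0.005 over all genes. Rilpl2, an effector that binds LRRK2-phosphorylated Rabs, was 10.7, 11.9 and 12.3 CPM at the low dose and 6.18, 5.49 and 5.62 CPM after MPTP. These libraries were well apart, and Rilpl2 rose by 1.01 on the log2 scale (edgeR adjusted p = 0.00309). At the high dose it was 8.90, 10.5 and 8.33 CPM and rose by 0.68 (edgeR adjusted p = 0.0338), a call lost whichever library of the 2 groups was left out (up to 0.161). The chaperone regulator Bag5 rose by 0.49 (adjusted p = 0.0169) and the scaffold Spag9 fell by 0.53 (adjusted p = 0.0132) at the low dose. Bag5 lost its call without BTK low 3 or any MPTP library (up to 0.0864), and Spag9 without MPTP 2 or MPTP 3 (up to 0.0766). Rab10, a main LRRK2 substrate, was 134 to 166 CPM in all libraries, Rab29 2.02 to 4.84 CPM, and the paralog Lrrk1 2.19 to 6.15 CPM.

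Of 36 mitophagy genes, 2 rose and 1 fell at the low dose against MPTP (median 0.05). Fkbp8, a mitophagy receptor of the outer membrane, was 283, 318 and 308 CPM at the low dose, 275, 271 and 273 CPM at the high dose and 213, 187 and 205 CPM after MPTP. It rose by 0.59 at the low dose (edgeR adjusted p = 0.00603) and by 0.44 at the high dose (adjusted p = 0.0414), the latter lost whichever library of the 2 groups was left out (up to 0.191). The autophagy receptor Optn was 18.3, 21.1 and 21.2 CPM at the low dose and 35, 35.2 and 33.4 CPM after MPTP, and fell by 0.78 (edgeR adjusted p = 0.0095). Optn was lower at the low dose than in any library without inhibitor. Tomm7, an import subunit that stabilises PINK1 on mitochondria, rose by 0.49 (adjusted p = 0.0494) and kept its call only without BTK low 1 (elsewhere up to 0.165).

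Of 39 lysosomal and P5 ATPase genes, 3 fell at the low dose against MPTP and 2 at the high dose, with medians of -0.15 and -0.09. Atp13a4, a relative of Atp13a2, was 16.9, 17.4 and 12.5 CPM at the low dose and 36.2, 36.0 and 32.3 CPM after MPTP, and fell by 1.16 (edgeR adjusted p = 0.00294). At the high dose it was 24.5, 17.9 and 22.0 CPM and fell by 0.70 (adjusted p = 0.0414), a call lost whichever library of the 2 groups was left out (up to 0.196). The control libraries, at 22.8, 26.7 and 25.4 CPM, lay between the MPTP and the low-dose libraries. Atp13a5 fell at the low dose by 0.80 and at the high dose by 0.81 (adjusted p = 0.0181 and 0.0385). The low-dose call was lost without BTK low 2, BTK low 3, MPTP 2 or MPTP 3 (up to 0.0809), and the high-dose call was kept only without MPTP 1 (elsewhere up to 0.169). The lysosomal thioesterase Ppt1 fell by 0.42 at the low dose (adjusted p = 0.0106, 0.0616 without MPTP 3). The astrocyte marker sum was 4120 to 4960 at the low dose, 4350 to 4880 at the high dose and 4450 to 5100 after MPTP, but its genes differed. From MPTP to the low dose Aqp4, Slc4a4 and Gja1 fell by 1.17, 1.21 and 0.51 (edgeR adjusted p = 0.0331, 0.0263 and 0.041), and the other 7 of the 10 did not pass, among them Slc1a2, the most abundant (mean 1896 CPM after MPTP and 2227 CPM at the low dose). At the high dose the differences of Aqp4 and Slc4a4 were -0.80 and -0.90 and did not pass (adjusted p = 0.173 and 0.12). The endothelial and pericyte sum was 323 to 532 after MPTP, 204 to 284 at the low dose and 195 to 233 at the high dose. The part of these markers in the Atp13a4 and Atp13a5 differences was not tested.

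Of 20 tested ubiquitin hydrolases and ubiquitin genes, 2 rose and 2 fell at the low dose against MPTP and 2 rose at the high dose. The hydrolase Otub2 was 28.1, 24.1 and 22.3 CPM at the low dose and 10.8, 12.3 and 11.1 CPM after MPTP, and rose by 1.12 (edgeR adjusted p = 0.00309). At the high dose Otub2 rose by 0.72 (adjusted p = 0.0407), which was kept only without BTK high 3 (elsewhere up to 0.172). The hydrolase Usp8 fell by 0.60 at the low dose (adjusted p = 0.00756). Usp9x fell by 0.57 (adjusted p = 0.0255) and kept its call only without BTK low 2 (elsewhere up to 0.108).

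Of 37 SCF ligase and proteasome genes, 2 rose at the low dose against MPTP and 1 at the high dose, and the medians were 0.16 and 0.23, beside -0.005 and -0.011 over all genes. The proteasome subunit Psma7 rose by 0.47 at the low dose and by 0.60 at the high dose (edgeR adjusted p = 0.0358 and 0.0328). Its low-dose call was kept only without BTK low 1 (elsewhere up to 0.122), and its high-dose call was lost whichever library of the 2 groups was left out (up to 0.14). Psmc3 rose by 0.53 at the low dose (adjusted p = 0.0242) and lost its call without BTK low 3 or any MPTP library (up to 0.0854). Of 26 antioxidant genes, 1 rose at the low dose against MPTP, mitochondrial thioredoxin Txn2, by 0.50 (adjusted p = 0.0419, up to 0.14 without a library, and lost without each of them). Of 23 retromer and WASH complex genes, 0 were called by edgeR in any of the 7 comparisons.

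Of 25 other inherited Parkinson genes, 1 fell at each dose against MPTP. Podxl, which encodes the surface sialomucin podocalyxin, was 28.7, 47.4 and 40.8 CPM after MPTP, 25.1, 13.6 and 19.5 CPM at the low dose and 15.7, 15.6 and 14.6 CPM at the high dose. It fell by 1.01 at the low dose and by 1.35 at the high dose (edgeR adjusted p = 0.0169 and 0.0154). The low-dose call was lost without BTK low 3, MPTP 2 or MPTP 3 (up to 0.0768), and the high-dose call was kept only without MPTP 1 (elsewhere up to 0.0838). The control libraries, at 18.4 to 18.7 CPM, were within the low-dose range. After levodopa Podxl was 49.7, 40.4 and 36.4 CPM. The summed endothelial and pericyte markers moved alongside Podxl. They were 323 to 532 CPM after MPTP, 433 to 534 CPM after levodopa, 204 to 284 CPM at the low dose, 195 to 233 CPM at the high dose and 258 to 312 CPM in control. Of these markers, mean Cldn5 was 19.2 CPM after MPTP and 20.6 CPM at the low dose, and mean Kcnj8 was 3.87 and 3.82 CPM. The means of the others were lower at the low dose. The part of these markers in the result was not tested.

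Against control, the low dose had calls in 5 lists. Of the 11 called, 5 rose, among them Rilpl2, Fkbp8, Otub2 and Keap1, and 6 fell, namely Optn, Spag9, Ppt1, Atp13a4, Usp8 and Usp9x. Of the 11, 2 (Rilpl2 and Otub2) kept their call without each library in turn, and the others lost it without at least 1 library, with control 2 among those libraries for 8 of the 9 and an adjusted p of up to 0.109. With regional covariates the differences from control were 0.49 for Rilpl2, 0.22 for Otub2, 0.13 for Keap1, -0.04 for Optn, -0.12 for Usp8 and -0.22 for Ppt1. Without control 2 the number called among the 225 was 3, and without BTK low 3 it was also 3.

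**Figure D4:**
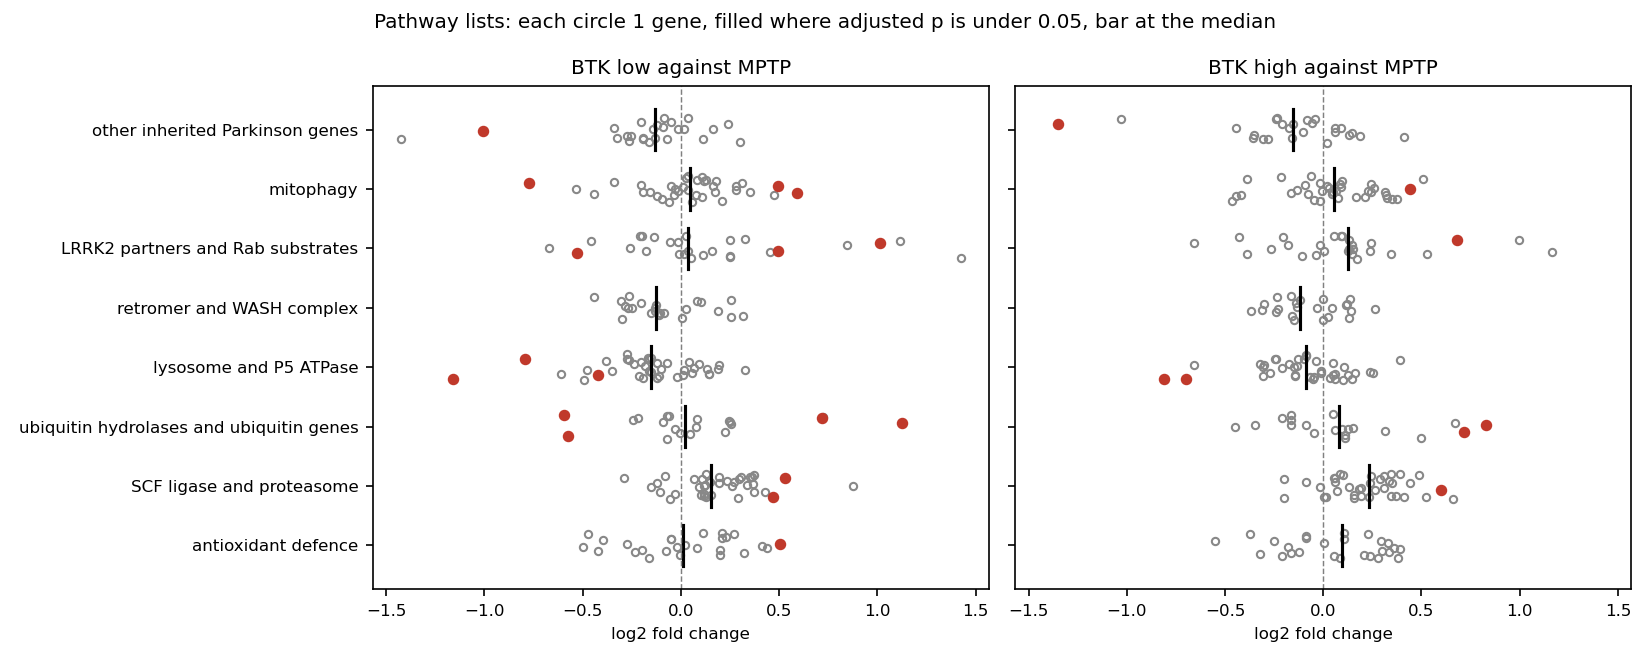
Log2 fold change of every tested gene of the 8 pathway lists for each inhibitor dose against MPTP, with 1 circle per gene, filled where the edgeR adjusted p is under 0.05, and a bar at the median of the list. Filled circles lie on both sides of 0, 17 at the low dose and 8 at the high dose.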

How the data were processed

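Per the submitters' processing notes, reads were handled with HISAT2 2.1.0, StringTie 2.1.3b, bcl2fastq 2.20.0 and Trimmomatic on GRCm38 (mm10). Per the labels' protocols, a stranded mRNA kit was used. For the annotation, strand setting and multi-mapping reads, the treatment is not given in the sources used here. The authors deposited a count of reads for every symbol in each library, as whole numbers, and the 7 rows were read from these. Groups came from the labels.

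Counts were tested with edgeR 4.0.16 in R 4.3.3 (limma 3.58.1): filterByExpr by group, TMM factors, and the quasi-likelihood F test in 1 fit of the 15 libraries and 5 groups with no covariates. Benjamini-Hochberg adjustment ran over all 21821 genes, with a threshold of 0.05. The fit was tested on simulated data for low dose against MPTP, where 31 of 100 genes changed 2-fold and 66 of 100 changed 4-fold were recovered among 21428 genes, with 3 false calls. These genes were raised in the low-dose group only, and all other means were equal between groups. The real comparison called 1861 genes in both directions, so its recovery may differ. CPM values use TMM-scaled totals. Libraries of a group differed from each other by a chi-square of 29.3 to 468 per degree of freedom, so none was counted as a repeat. Levels per kb use GENCODE M21 union exon lengths, and promoter windows are RefSeq's on GRCm38.p6.

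The 7 members, the pathway lists and the marker lists were chosen with earlier results of these data known. All 7 members were named in every comparison. Of each pathway list, up to 4 called genes with the smallest p were named, and 11 direct partners were read whether called or not (those that add to a member's account are given, and a few listed genes are left unreported here). The genes of closest profile were the 3 with the smallest root mean square difference in centred log2 CPM among genes with a mean of at least 5 CPM, leaving out predicted genes. The alternatives were 2 other normalizations, DESeq2 1.42.0, 2 other filters, the 2 groups alone, a replicate block, regional marker scores as covariates, each library left out, and control 2 and levodopa 2 left out together.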

Additional observations from a re-analysis of the deposited data

How the results depend on the processing

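The number of members called was 0 in all 7 comparisons and stayed 0 under every alternative run, except for low dose against MPTP, where it was 1 (Lrrk2) with DESeq2, in the fit of the 2 groups alone and with control 2 and levodopa 2 left out. Those 3 fits called 15.6%, 20.8% and 23.7% of all genes tested, so 1 of 7 is near the background. Of 49 member differences, 25 changed sign at least once, 62 times in all, and none of those exceeded 0.417 in size on the log2 scale as reported or 0.463 after the change. The causes were not tested. With regional covariates several log2 differences changed sign. None of them passed, and that fit called at most 2 of all 21821 genes in a comparison. For Atp13a2 high against low dose was -0.033 (SE 0.153). Against control the high and low dose were 0.124 (SE 0.285) and 0.157 (SE 0.36). Against MPTP they were 0.073 (SE 0.281) and 0.106 (SE 0.356). For Fbxo7 the differences that changed sign were 0.281 and 0.265 for high and low dose against MPTP and 0.412 for low dose against control. For Pink1 it was 0.463 for low dose against MPTP. For Uchl1 they were -0.126, -0.201 and 0.14 for high dose, low dose and levodopa against MPTP. For Vps35 they were -0.093 and -0.097 for high and low dose against control, -0.008 and -0.011 against MPTP, and -0.085 for MPTP against control. The deviations of same-numbered libraries from their group means had correlations of -0.297 to 0.239 in the 7 comparisons. No correlation was computed for other pairs, such as control 2 and levodopa 2. Whether those libraries share more than their number was not tested. With the replicate block, Atp13a2 and Uchl1 for high against low dose were -0.007 and -0.017, Lrrk2 for low dose against MPTP was 1.172 (edgeR adjusted p = 0.0821), and the pathway genes called were 17, 2 and 0 for low dose against MPTP, high dose against MPTP and high dose against control. Upper-quartile scaling gave 0.004 for Park7 in MPTP against control and -0.013 for Uchl1 in low dose against MPTP, and Pink1 in low dose against control was -0.004 with RLE factors and with DESeq2. With control 2 and levodopa 2 left out, Park7 was 0.003 in MPTP against control, Pink1 -0.011 in low dose against control, and Vps35 -0.036, -0.057 and -0.111 in high dose, low dose and MPTP against control. Leaving out 1 library, the ranges that crossed 0 were, for Atp13a2, -0.121 to 0.096 (high against low), -0.109 to 0.055 (high against control), -0.121 to 0.08 (low against control) and -0.027 to 0.213 (levodopa against MPTP). They were -0.156 to 0.134 for Fbxo7 (low against control), and for Park7 -0.195 to 0.096 (high against low), -0.074 to 0.016 (levodopa against MPTP) and -0.117 to 0.003 (MPTP against control). For Pink1 they were -0.095 to 0.087 (low against control), -0.121 to 0.061 (low against MPTP) and -0.019 to 0.082 (MPTP against control), and for Uchl1 -0.078 to 0.108 (high against low), -0.069 to 0.216 (high against MPTP) and -0.093 to 0.193 (low against MPTP). For Vps35 they were -0.09 to 0.083 (high against low), -0.036 to 0.201 (high against control), -0.057 to 0.202 (low against control) and -0.111 to 0.129 (MPTP against control). Pathway genes called in low dose against MPTP were 17, and 33 with DESeq2, 26 with the 5 CPM filter, 34 with the 2 groups alone, 47 without control 2 and levodopa 2, 0 with regional covariates and 7 to 19 without 1 library. In high dose against MPTP they were 8, and 28, 30 and 55 with DESeq2, without control 2 and levodopa 2 and with the 2 groups alone, 2 with no filter, 0 with regional covariates and 0 to 3 without 1 library. In low dose against control they were 11, and 36, 20 and 20 with DESeq2, the 5 CPM filter and without control 2 and levodopa 2, 0 with the 2 groups alone and with regional covariates, and 3 to 14 without 1 library. In high dose against control the count was 1, and 28 with DESeq2, 6 with the 5 CPM filter, 2 with upper-quartile scaling and 0 with no filter, the 2 groups alone or regional covariates. Genes called over all 21821 for low dose against MPTP were 1861, and 3412 with DESeq2, 4253 with the 2 groups alone (20426 tested) and 0 with regional covariates. The 5 CPM filter called 14.1% there. For high dose against MPTP the shares were 7.98% with DESeq2, 11.1% without control 2 and levodopa 2 and 17.5% with the groups alone. For low dose against control they were 12.8% with DESeq2, 10.4% with the 5 CPM filter and 8.33% without control 2 and levodopa 2. For high dose against control they were 6.7% with DESeq2 and 1.98% with the 5 CPM filter. At 3 libraries a group, the simulated 2-fold changes were mostly missed (31 of 100 recovered). That simulation changed fewer genes than were called here, so 31 of 100 is not the recovery of the real test.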

Other observations

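Uchl1os, the antisense gene beside Uchl1, had 0 reads in BTK high 2 and BTK low 2, 17 in control 2, 18 in levodopa 2 and 52 to 90 in the other 11 libraries. Uchl1 itself was 493 and 567 CPM in BTK high 2 and BTK low 2, within the range of the other inhibitor libraries. In control 2 and levodopa 2, where Uchl1os had 17 and 18 reads, Uchl1 was also lowest, at 94.8 and 127 CPM.

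Summed microglial markers stood at 137 CPM in control 2, at 160 CPM in levodopa 2 and at 321 to 405 CPM in the other 13 libraries.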
